A study of Mus musculus with 3 samples.

Results

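Foxp1, Foxp2, Foxp4, Bcl11a, Bcl11b, Ikzf1, Ikzf2, Ppp1r1b, Rgs9 and Arpp21 were grouped as regulators and signalling effectors shared by striatal spiny projection neurons. The binding of MEIS2 around these genes was described from CUT&Tag peaks. The 10 genes were taken by name from the 21887 protein-coding genes placed on chromosomes 1 to 19, X and Y, and each locus was the gene body plus 50 kb on each side in mm10. In CUT&Tag an antibody tethers the Tn5 transposase, which cuts and tags the DNA near the bound protein. The lateral ganglionic eminence (LGE), from which striatal projection neurons arise, was dissected at E14.5 from embryos of the CD1 strain, all wild type. The libraries were 2 with a mouse polyclonal antibody to MEIS2, and 1 of the same tissue, strain and age made with no antibody, each from 100000 cells. The labels do not say how many embryos went into a library or whether the MEIS2 libraries came from separate dissections. No treatment or mutant allele is named. The lists hold no expression values, so the tissue label could not be checked against marker levels.

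The peak caller kept 7618406 and 6559629 tags in the MEIS2 libraries and 6337375 in the no-antibody library, and called 78060, 82093 and 9869 peaks on these chromosomes. Replicate 1 peaks were called reproducible where 1 bp or more lay in a replicate 2 peak and nothing lay in a no-antibody peak, and 47809 peaks met this rule genome-wide. Of these, 61 lay in the 10 loci. Fold enrichment is the caller's ratio of the pileup (the tags stacked at the summit) to the locally expected pileup, with 1 added to each, and paired values below are those of replicate 1 and then of replicate 2. Because the tissue was measured in bulk, binding in few cells and weak binding in many cannot be told apart. With 1 no-antibody library and peak lists in place of levels, no test between MEIS2 and no antibody was possible, and counts are given beside the same counts over all protein-coding genes.

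MEIS2 belongs to the TALE homeodomain proteins, and MEIS proteins are known to bind a core of the letters TGACAG, often together with PBX partners. FOXP1, FOXP2 and FOXP4 are forkhead factors that act mainly as repressors and pair with one another. BCL11A and BCL11B (also called CTIP1 and CTIP2) and IKZF1 and IKZF2 (Ikaros and Helios) are zinc finger factors, and BCL11B is required for normal differentiation of striatal projection neurons. Ppp1r1b encodes DARPP-32, an inhibitor of protein phosphatase 1 that is switched by dopamine and cAMP signalling. RGS9 speeds the shut-off of G protein signals downstream of dopamine and opioid receptors. Arpp21 encodes a cAMP-regulated phosphoprotein of spiny neurons, and its gene carries the microRNA gene Mir128-2.

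The sequences below are the 300-base promoter windows (250 bases before to 50 after a listed start, RefSeq, GRCm38.p6) in which a member's MEIS2 summit lay, shown because the peak can be placed on the letters of the start itself. They are written 5′ to 3′ on the gene's strand, and the 21 capitals mark the replicate 1 summit with 10 bases on each side. The Foxp1 window is chr6:99028249-99028548 (minus strand), the start of a shorter Foxp1 transcript inside the gene. The Foxp4 window is chr17:47924583-47924882 (minus strand). The Ikzf1 window is chr11:11685675-11685974 (plus strand). The Rgs9 window is chr11:109298132-109298431 (minus strand). The Bcl11a window is chr11:24080445-24080744 (plus strand), where a peak was called in replicate 1 but not in replicate 2.
Foxp1: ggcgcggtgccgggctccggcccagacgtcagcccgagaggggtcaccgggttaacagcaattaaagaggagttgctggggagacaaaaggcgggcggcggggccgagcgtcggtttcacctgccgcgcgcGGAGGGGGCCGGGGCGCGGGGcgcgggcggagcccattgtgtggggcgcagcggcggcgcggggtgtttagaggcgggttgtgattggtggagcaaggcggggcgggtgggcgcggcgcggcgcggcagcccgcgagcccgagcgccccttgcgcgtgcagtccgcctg
Foxp4: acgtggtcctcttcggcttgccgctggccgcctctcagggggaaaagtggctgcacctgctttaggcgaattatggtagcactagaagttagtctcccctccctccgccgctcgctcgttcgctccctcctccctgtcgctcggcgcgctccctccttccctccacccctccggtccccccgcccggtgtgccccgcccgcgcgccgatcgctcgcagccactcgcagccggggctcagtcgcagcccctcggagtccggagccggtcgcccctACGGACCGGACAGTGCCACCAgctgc
Ikzf1: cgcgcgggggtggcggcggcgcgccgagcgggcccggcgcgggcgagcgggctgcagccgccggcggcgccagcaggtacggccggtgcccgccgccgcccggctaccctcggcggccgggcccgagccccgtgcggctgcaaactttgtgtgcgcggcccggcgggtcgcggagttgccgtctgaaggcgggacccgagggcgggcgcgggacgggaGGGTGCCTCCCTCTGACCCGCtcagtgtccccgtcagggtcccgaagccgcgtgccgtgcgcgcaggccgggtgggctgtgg
Rgs9: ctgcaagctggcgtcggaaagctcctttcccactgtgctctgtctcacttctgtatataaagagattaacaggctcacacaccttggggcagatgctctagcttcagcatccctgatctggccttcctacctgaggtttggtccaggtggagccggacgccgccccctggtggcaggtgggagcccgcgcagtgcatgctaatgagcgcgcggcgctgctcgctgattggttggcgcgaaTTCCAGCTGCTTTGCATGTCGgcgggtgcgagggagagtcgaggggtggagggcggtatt
Bcl11a: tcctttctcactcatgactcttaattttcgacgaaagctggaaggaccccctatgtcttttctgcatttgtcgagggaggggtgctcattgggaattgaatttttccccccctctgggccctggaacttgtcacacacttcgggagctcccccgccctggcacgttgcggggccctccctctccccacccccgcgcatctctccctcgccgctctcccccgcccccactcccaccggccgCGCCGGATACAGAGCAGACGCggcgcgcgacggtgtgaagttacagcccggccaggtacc
The summits lay 109 bases before the start in Foxp1, 22 bases before it in Ikzf1, 34 bases after it in Foxp4, and on the start itself in Rgs9 and Bcl11a. Base composition ran from 60.3% G and C in the Rgs9 window to 81.3% in the Ikzf1 window, against a median of 56.3% over 21263 promoter windows of protein-coding genes. TGACAG or its reverse complement was in 0 of these 5 windows and in 18.7% of all the windows. Listed starts were found for 7 of the 10 genes, in 18 windows. TGACAG was in 6 of the 18, of which 5 were among the 9 windows of Arpp21, some of which overlap, and 1 was at another Foxp1 start. The homeodomain core TAATTA, whose letters cannot overlap those of TGACAG or its reverse complement, was in 1 of the 18 windows, at the same Foxp1 start, and in 4.53% of all. Both strands were searched. A missing string says only that these letters are not in the window.

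**Figure D1:**
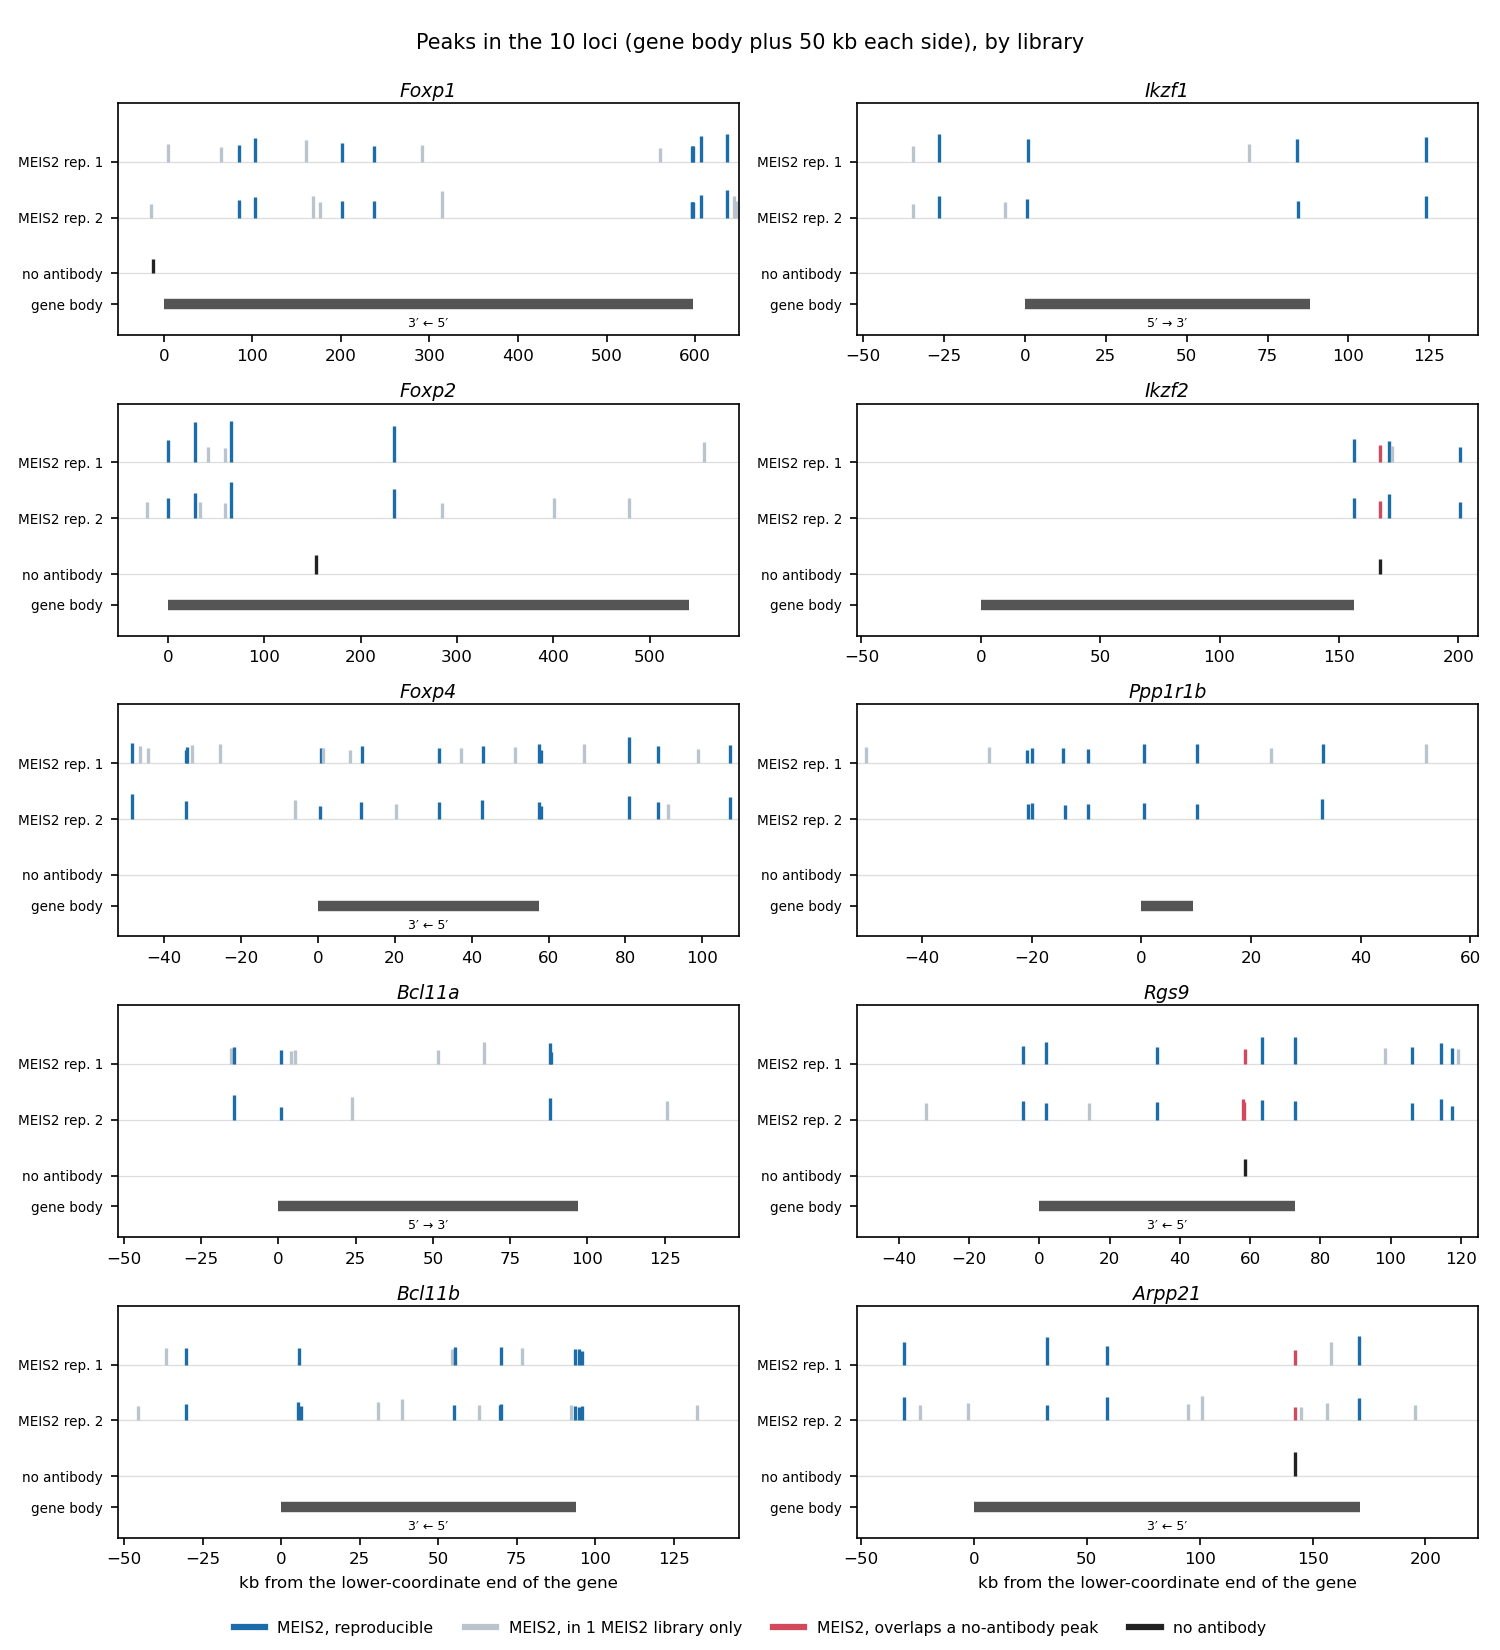
Peaks of each library along the 10 loci, with the horizontal axis in kb from the lower-coordinate end of the gene and 1 mark per peak at its summit, taller with higher fold enrichment. Blue marks are reproducible MEIS2 peaks, grey marks MEIS2 peaks without a partner in the other MEIS2 library, red marks MEIS2 peaks that overlap a no-antibody peak and black marks no-antibody peaks. The no-antibody library has 5 marks in all, 0 of them at a gene end, and the direction of transcription is drawn where a start is listed.

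The 10 genes were chosen with earlier results of these data known, so the counts below cannot be read as an excess over all genes. All 10 genes had a reproducible MEIS2 peak with its summit within 1 kb of a gene end, while 52.4% of all protein-coding genes did. In the no-antibody library 0 of the 10 genes and 0.27% of all protein-coding genes had such a peak. The count was 9 of 10 against 45.4% of all genes when shared peaks had to cover 50% of each other, 8 of 10 against 40.4% with −log10 q of at least 5, and 7 of 10 against 43.2% with summits within 0.5 kb. Peaks of either MEIS2 library by itself, with no-antibody overlaps removed, gave 10 of 10, against 60.4% of all genes in replicate 1 and 55.3% in replicate 2. Measured from listed starts instead of gene ends, 5 of 7 genes had a summit within 1 kb, against 54.3% of all genes with a listed start. Bcl11a and Arpp21 were the 2 without one.

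Foxp2 carried the strongest MEIS2 peaks of the 10 loci, and they lay inside the gene. FOXP2 is known for its role in vocal learning circuits, and striatal neurons of the direct pathway express it strongly. The MEIS2 libraries had 7 and 10 peaks in the locus and the no-antibody library had 1, and 4 were reproducible. The first, chr6:14966324-14966907, lay 65392 bp inside the gene with fold enrichments of 18.5 and 15.7 and pileups of 54 and 42 tags. By the lower of its 2 fold enrichments it stood above 97.3% of all reproducible peaks. Another inside the gene, chr6:15136259-15136609, had 15.5 and 12.1 and stood above 92.5%. Of the 61 peaks, these 2 were the ones above 90% of the genome-wide set. The remaining internal peak, chr6:14929196-14929568, had fold enrichments of 17.6 and 9.83 and pileups of 33 and 16, its replicate 1 value standing well above that of replicate 2. At the lower-coordinate end, chr6:14901190-14901902 had 8.03 and 7.23, with its summit 173 bp from the end. Between the internal peaks, the no-antibody library had a peak at chr6:15055227-15055671 (fold enrichment 6.49, pileup 12) that overlapped no MEIS2 peak.

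Foxp1, which marks projection neurons of both striatal pathways, had reproducible peaks at 2 of its starts and outside its 5′ end. The locus had 13 and 15 MEIS2 peaks and 1 no-antibody peak, and 8 were reproducible. The internal start shown above lay under chr6:99027978-99028870 (9.04 and 7.18). At the 5′ end of the gene, the neighbouring peaks chr6:99521454-99522338 (4.60 and 4.86) and chr6:99522568-99523061 (4.56 and 4.52) were 229 bp apart. Their fold enrichments were lower than those of the peaks beyond that end. These were chr6:99531647-99531959 (10.0 and 8.10), 9050 bp away, and chr6:99560651-99561052 (11.2 and 10.9), 38147 bp away. The latter had the highest lower fold enrichment of the Foxp1 locus. Pileups were closer, at 15 and 13 and 15 and 12 tags for the end peaks. The nearer outside peak had 16 and 13 tags and the farther had 20 and 17. The locally expected pileup of replicate 1 was 2.48 and 2.51 tags at the end peaks, and 0.701 and 0.877 at the outside peaks. The 3 other reproducible peaks were inside the gene, 84781 to 237548 bp from an end, with fold enrichments of 4.70 to 6.47 and 5.10 to 5.74. The no-antibody peak, chr6:98912479-98912844 (fold enrichment 4.20, pileup 8), lay outside the gene and overlapped no MEIS2 peak.

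Foxp4, whose product can pair with FOXP1 and FOXP2, had 12 reproducible peaks, of which 3 had a lower fold enrichment above the genome-wide median of 5.94. No locus of the 10 had more under this rule, but the order turned with it. With 50% reciprocal overlap Foxp4 had 7 peaks and Rgs9 had 8, without flanks Foxp4 had 5 and Foxp1 had 6, and with flanks of 25 kb Foxp4, Foxp1 and Ppp1r1b had 7 each. Without MEIS2 replicate 1 Foxp4 had 14, and Foxp1 and Bcl11b had 15 each. The locus had 22 and 14 MEIS2 peaks and 0 no-antibody peaks. Its start was covered by chr17:47923825-47924759 (6.38 and 5.45, pileups 28 and 19), followed 245 bp further out by chr17:47925005-47925339 (3.56 and 3.30), which also lay 203 bp from an end of the lncRNA gene Gm46601. At the 3′ end lay chr17:47867804-47868030 (4.39 and 3.17). The highest lower fold enrichment was that of chr17:47947929-47948198 (10.2 and 8.39), 23420 bp beyond the 5′ end. In the opposite flank, chr17:47818755-47819041 (6.84 and 9.51) and a pair of replicate 1 peaks that share 1 replicate 2 partner, chr17:47832795-47833004 and chr17:47833173-47833400 (3.47 and 5.00, partner 5.89), lay inside the neighbouring gene Mdfi. Replicate 1 called 10 further peaks here without a replicate 2 partner, more than at any other of the loci.

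Bcl11b had a run of peaks of low fold enrichment at its 5′ end and, in replicate 1, 1 very wide peak near its 3′ end. The locus had 10 and 15 MEIS2 peaks and 0 no-antibody peaks, and 7 were reproducible. At the 5′ end lay chr12:108003816-108004048 (4.84 and 3.92), chr12:108004844-108005379 (4.44 and 3.33) and chr12:108006071-108006361 (3.89 and 4.35), with summits 224, 1086 and 2064 bp from the end. Their replicate 1 pileups of 21, 19 and 17 tags were at or above the median of 17 for all reproducible peaks, while their fold enrichments were below the medians of 7.26 and 6.38. The wide peak, chr12:107915354-107917332, was 1979 bp long, longer than 99.9% of reproducible peaks. Its summit lay 5814 bp inside the gene, and its fold enrichments were 5.41 and 6.06. Replicate 2 had 2 separate peaks there, chr12:107915582-107916610 (6.06, the value paired here) and chr12:107916760-107917273 (3.92). The site had the highest lower fold enrichment of the locus.

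Bcl11a, the paralog of Bcl11b, had peaks near its 3′ and 5′ ends that differed more in fold enrichment than in pileup. The locus had 9 and 5 MEIS2 peaks and 0 no-antibody peaks, and 4 were reproducible. Its peak with the highest lower fold enrichment, chr11:24163409-24164468 (7.58 and 7.98), lay 9247 bp from the 3′ end and shared its replicate 2 partner with the adjacent chr11:24164621-24164835, whose replicate 1 fold enrichment of 2.90 was the lowest of the 61. At the 5′ end of the gene lay chr11:24077198-24077555 (3.78 and 3.40), with its summit also 772 bp from an end of the RNA gene A830031A19Rik. Its pileups were 17 and 11 tags, against 17 and 15 at chr11:24163409-24164468. The locally expected pileup of replicate 1 was 3.77 tags at the 5′ peak and 1.38 at the 3′ one. The 5′ peak was 3429 bp from the listed start. On that start replicate 1 had a peak, chr11:24080591-24080792, with a fold enrichment of 3.36 and a pileup of 15, and replicate 2 had none. Outside the gene, chr11:24062008-24062204 had 5.29 and 9.56. Across both Bcl11 genes, 1 of 11 reproducible peaks had its lower fold enrichment above the genome-wide median of 5.94. The median pileups of the 11 were 17 and 12 tags, the same as those of all reproducible peaks.

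Ikzf1 and Ikzf2 had 4 and 3 reproducible peaks, against a median of 4 over all protein-coding gene loci, and 5 of these 7 had a lower fold enrichment above the genome-wide median of 5.94. IKZF1 is known for its role in enkephalin-expressing striatal neurons, and IKZF2 for the maturation of striatal projection neurons. The Ikzf1 locus had 6 peaks in each MEIS2 library and 0 in the no-antibody library, and 4 were reproducible. The start was covered by chr11:11685268-11686423 (8.15 and 6.29), 1156 bp long, whose summit also lay 268 bp from an end of the lncRNA gene Gm11999. Others lay 26544 bp before the gene, chr11:11658212-11658608 (10.8 and 7.65), and inside it near the 3′ end, chr11:11769014-11769535 (8.23 and 5.10). The highest lower fold enrichment of the locus, at chr11:11808683-11809272 (9.35 and 7.95), belonged to a peak 152 bp from an end of the neighbouring gene Fignl1.

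The Ikzf2 locus had 5 and 4 MEIS2 peaks and 1 no-antibody peak, and all of them lay at or beyond the upper-coordinate end, with none inside the 156 kb gene body away from that end. At that end lay chr1:69687297-69687880 (8.82 and 7.01), with its summit 228 bp outside the gene. Further out were chr1:69701973-69702251 (7.72 and 9.0), the highest of the locus by the lower value, and chr1:69732072-69732243 (4.70 and 5.10). Between them, both MEIS2 libraries and the no-antibody library had a peak at one place: chr1:69698245-69698597 (5.81) in replicate 1, chr1:69698228-69698440 (5.34) in replicate 2 and chr1:69698328-69698583 (4.40) without antibody. That site was left out of the reproducible set. Ikzf2 was the 1 of the 10 genes without a reproducible summit inside it, and 59.9% of all protein-coding genes had one.

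**Figure D2:**
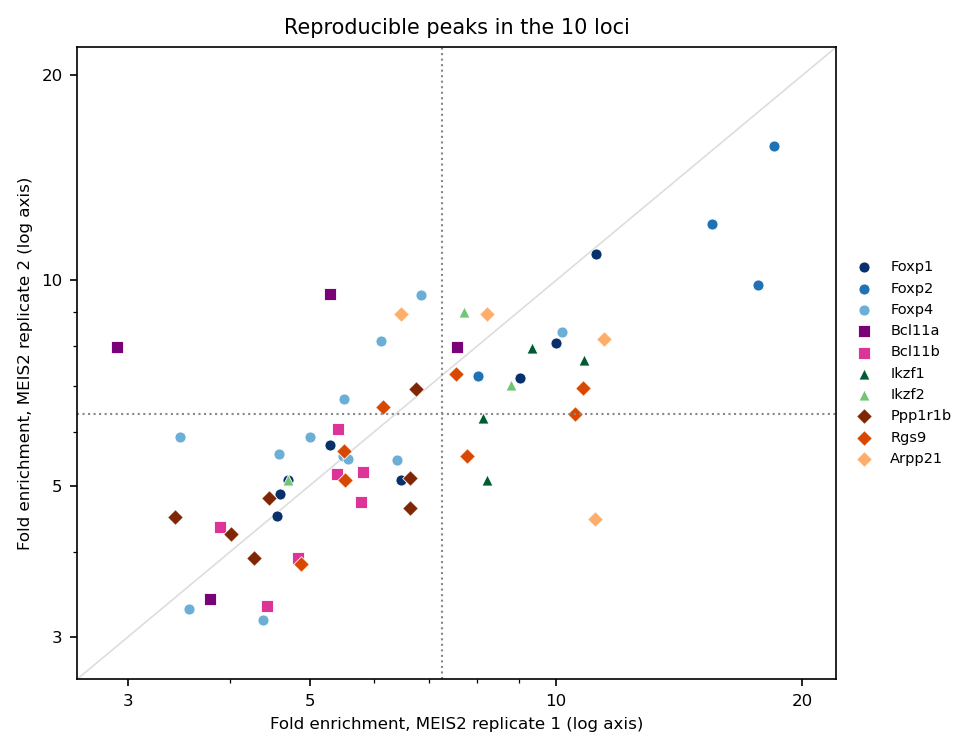
Fold enrichment of the 61 reproducible peaks in MEIS2 replicate 1 (horizontal, log axis) and in replicate 2 (vertical, log axis), coloured by gene and shaped by family. Dotted lines mark the medians of all 47809 reproducible peaks, 7.26 and 6.38, and the grey diagonal marks equal values. The 3 internal Foxp2 peaks lie furthest to the right. The Bcl11b peaks and most Ppp1r1b peaks lie below both medians, while most Bcl11a peaks lie above the replicate 2 median.

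Among the effectors, Ppp1r1b had 7 reproducible peaks in a short, gene-rich locus of 109 kb, and several sat at neighbouring genes. There were 11 and 7 MEIS2 peaks and 0 no-antibody peaks. Every one of the 7 replicate 2 peaks had a replicate 1 partner. The peak at the lower-coordinate end of Ppp1r1b, chr11:98348225-98349212, had fold enrichments of 6.63 and 5.12 and pileups of 24 and 14, with its summit 485 bp inside the gene. The one 659 bp beyond the other end, chr11:98358332-98358722 (6.64 and 4.63), lay 88 bp from an end of Stard3, so its gene cannot be told from position. At the other end of Stard3, which encodes a cholesterol-binding protein, chr11:98381279-98381703 (6.73 and 6.93, pileups 34 and 25) had the highest lower fold enrichment of the locus. At an end of Gm33099, chr11:98334003-98334670 had 4.27 and 3.91. A pair inside Neurod2, a neuronal transcription factor gene, had fold enrichments of 3.42 and 4.49 at chr11:98327427-98327632 and of 4.46 and 4.80 at chr11:98328144-98328945.

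Rgs9 had 8 reproducible peaks, 4 at the start or inside the gene, 3 in the 5′ flank and 1 in the 3′ flank. The locus had 11 and 12 MEIS2 peaks and 1 no-antibody peak. The peak on the start, chr11:109297965-109298345, had fold enrichments of 10.6 and 6.38 and pileups of 17 and 9. Its summit also lay 49 bp from an end of the lncRNA gene Gm39441. Inside the gene, chr11:109288551-109288975 (10.8 and 6.95) lay 9486 bp from the start, chr11:109258720-109259150 (5.51 and 5.63) in the middle and chr11:109227074-109227531 (7.77 and 5.52) 2025 bp from the 3′ end. The first 2 of these named peaks, at and near the start, had the highest replicate 1 values of the locus, while by the lower value chr11:109339577-109339821 (7.55 and 7.28), 41480 bp beyond the 5′ end, came first. The peak in the 3′ flank, chr11:109220473-109221050 (6.14 and 6.51), lay 4493 bp beyond the gene. A no-antibody peak inside the gene, chr11:109283163-109284046 (5.15), overlapped chr11:109283805-109284060 (4.50) of replicate 1 and chr11:109283037-109283347 (7.43) and chr11:109283530-109283703 (5.57) of replicate 2, which were left out.

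Arpp21 had 4 reproducible peaks, of which 3 had a lower fold enrichment above the genome-wide median of 5.94. The locus had 6 and 12 MEIS2 peaks and 1 no-antibody peak. Near the 5′ end, chr9:112235070-112235942 had 11.4 and 8.21, with its summit 790 bp inside the end and 1776 bp from the nearest of the 9 listed starts. Inside the gene, chr9:112124010-112124206 (6.47 and 8.93) lay 5343 bp from Mir128-2, and chr9:112097341-112097654 had 11.2 in replicate 1 but 4.46 in replicate 2, with pileups of 18 and 6. Beyond the 3′ end, chr9:112033941-112034201 (8.23 and 8.93) had the highest lower fold enrichment of the locus. The strongest no-antibody peak of the 10 loci, chr9:112206553-112207418 (9.26, pileup 21), overlapped weak MEIS2 peaks at chr9:112207247-112207418 (4.12, pileup 6) and chr9:112207352-112207513 (3.68, pileup 5). There the no-antibody value was the highest of the 3 libraries.

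**Figure D3:**
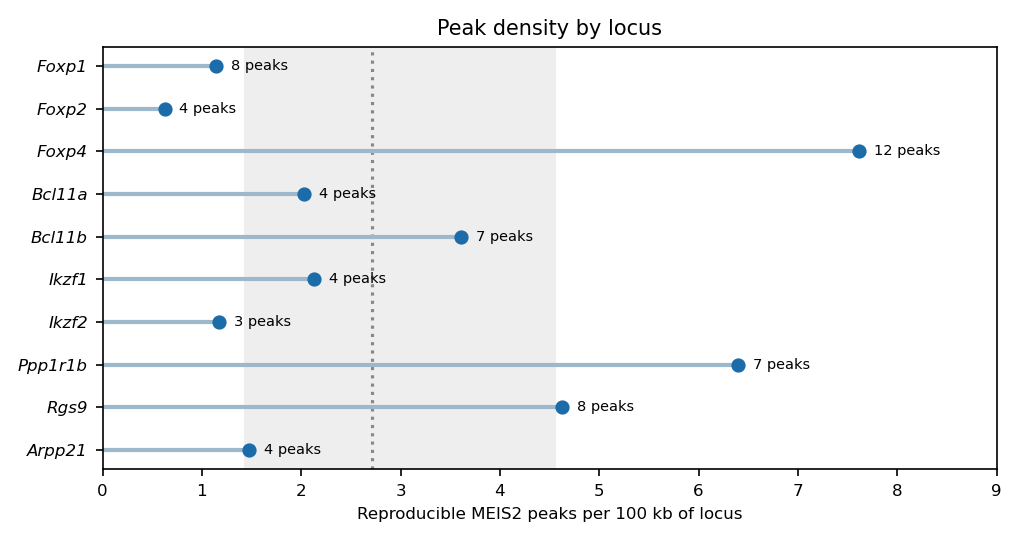
Reproducible MEIS2 peaks per 100 kb of locus for each gene (points), with the number of peaks beside each. The dotted line is the median of all protein-coding gene loci, 2.71, and the grey band runs between their quartiles, 1.44 and 4.56. Foxp4, Ppp1r1b and Rgs9 lie above the band, and Foxp1, Foxp2 and Ikzf2 lie below it.

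Per length, 4 of the 10 loci were denser in MEIS2 peaks than the median locus and 6 were less dense. All 10 loci held at least 1 reproducible peak, and so did 92.8% of all protein-coding gene loci. Density ran from 0.624 peaks per 100 kb at Foxp2 to 7.62 at Foxp4, with 6.40 at Ppp1r1b, 4.63 at Rgs9 and 3.61 at Bcl11b. The median of the 10 was 2.08 per 100 kb, against 2.71 over all protein-coding gene loci. Together the loci held 61 peaks in 2884 kb, or 2.12 per 100 kb, against 2.90 for all loci summed. Pooled by length, the 7 regulators had 1.80 per 100 kb and the 3 effectors 3.43. Single loci of the groups overlapped. The regulators ran from 0.624 (Foxp2) to 7.62 (Foxp4) and the effectors from 1.47 (Arpp21) to 6.40 (Ppp1r1b). The loci of Foxp1 and Foxp2 are long, 697 and 641 kb against a median of 117 kb over all loci, and by count rather than density Foxp1, with 8 peaks, held more than 85.7% of all loci. Without MEIS2 replicate 1 the combined count was 96 peaks (3.33 per 100 kb), and without replicate 2 it was 97 (3.36 per 100 kb), since a single library needs no partner. Single loci shifted by more than 1.5 times. Without replicate 1, Foxp1 and Bcl11b had 15 peaks each, Arpp21 had 11 and Foxp2, the least dense when both replicates were required, had 10. Without replicate 2, Foxp4 had 22, Foxp1 13, Ppp1r1b 11, Bcl11a 9 and Foxp2 7.

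Peaks in the loci recurred between the MEIS2 libraries about as often as peaks elsewhere. Each library had 100 peaks there. Of the replicate 1 peaks, 61% were reproducible (95% Wilson interval 51.2 to 70.0, counting error only), against 61.2% over the genome. Of the replicate 2 peaks, 62% met the same rule (52.2 to 70.9), against 59.2% over the genome. The 61 peaks had 59 different replicate 2 partners, and in 45 the summits of the replicates lay within 100 bp of each other. Fold enrichment was higher in replicate 1 for 36 of the 61. Across these 61 peaks, which share their 2 libraries and local background, Spearman's rho between replicates was 0.67. Their median fold enrichments were 6.11 and 5.74, against 7.26 and 6.38 for all reproducible peaks, and 24 of 61 had a lower value above the genome-wide median of 5.94. The median pileups of 17 and 12 tags equalled those of the whole set. Peaks without a partner had median fold enrichments of 4.75 in replicate 1 and 5.10 in replicate 2, and the highest reached 8.62 in replicate 1, in Arpp21, and 10.2 in replicate 2, in Foxp1.

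The no-antibody library had 1 peak each at Foxp1, Foxp2, Ikzf2, Rgs9 and Arpp21. Thus 5 of the 10 loci held one, against 26.6% of all protein-coding gene loci. These 5 loci are longer than the median locus of 117 kb. So are those of Foxp4, Bcl11a, Bcl11b and Ikzf1 (157.5 to 197 kb), which held none. Whether locus length bears on the count was not tested. In replicate 1, 3 of the 100 peaks in the loci overlapped a no-antibody peak, against 6.01% of all replicate 1 peaks.

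**Figure D4:**
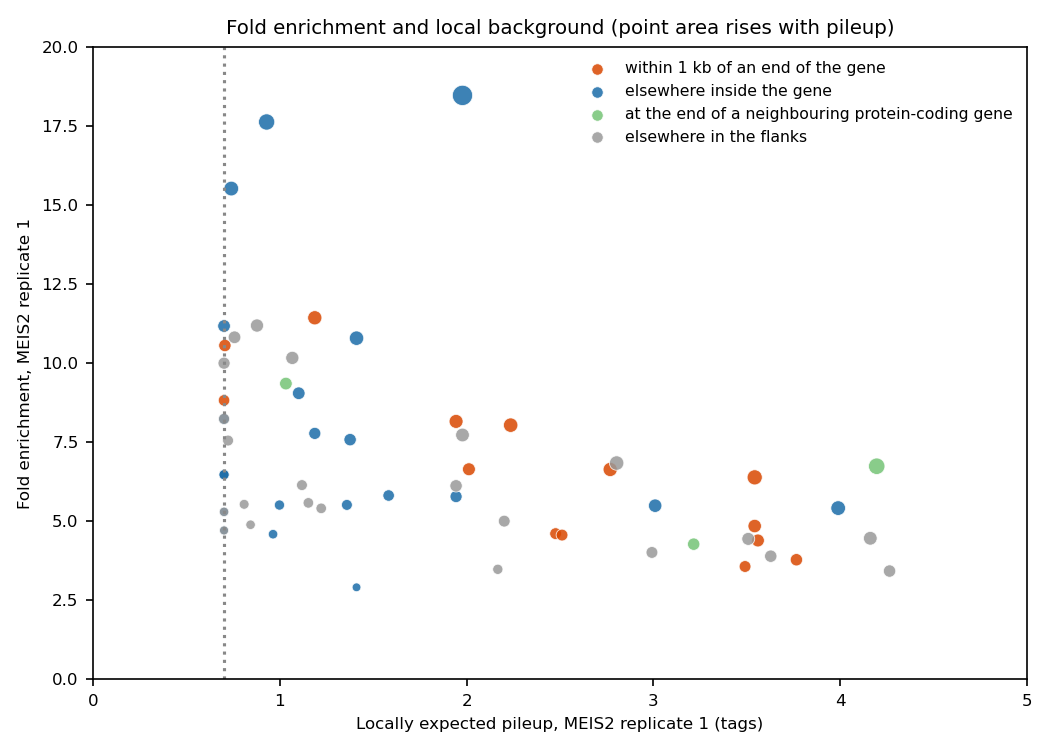
Fold enrichment in MEIS2 replicate 1 (vertical) of the 61 reproducible peaks against the locally expected pileup in tags (horizontal), coloured by position and with a point area that rises with the pileup. The dotted line marks the genome-wide expectation of 0.701 tags. Peaks at a member's end run from 0.701 to 3.77 tags, and the highest expectation, 4.27, is that of a peak in the Ppp1r1b flank. Further to the right a given pileup gives a lower fold enrichment.

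Fold enrichment and pileup ranked the peaks differently, and the expected pileup differed between places. The expected value follows from the deposited pileup and fold enrichment, and for 12 of the 61 peaks it was within 1% of the genome-wide 0.701 tags of replicate 1. At the 14 peaks within 1 kb of a member's end its median was 2.49, against 1.10 at the 21 peaks elsewhere inside the genes. The end peaks had median pileups of 19 and 11.5 tags and fold enrichments of 6.51 and 4.99. The internal peaks had pileups of 16 and 10 and fold enrichments of 6.47 and 5.74. At the Foxp4 start the expected pileup was 3.54 and 28 tags gave a fold enrichment of 6.38, while at the Rgs9 start it was 0.705 and 17 tags gave 10.6. Over the whole reproducible set the median was 1.41 near protein-coding gene ends and 1.10 at all other peaks, which include those between genes. The median length of the end peaks was 539 bp and that of the internal peaks 425 bp. The expected value comes from the same MEIS2 library, without a control file, so MEIS2 signal nearby is counted in it. Its part in these differences was not tested.

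MEIS2 peaks also lay at ends of related genes that are not among the 10. Of the 4 paralogs Foxp3, Ikzf3, Ikzf4 and Ikzf5, 3 had one: Ikzf3 (9.23 and 5.74), Ikzf4 (8.23 and 5.92) and Ikzf5 (8.23 and 4.90). Foxp3, the regulator of regulatory T cells, had none. The second list held 15 partners of dopamine and cAMP signalling: Adcy5, Gnal, Gng7, Gnb5, Rgs7bp, Prkaca, Prkacb, Prkar2b, Cdk5, Ppp1ca, Ppp1cc, Ppp3ca, Pde1b, Pde10a and Ptpn5. Of these 10 had an end peak (66.7%, against 52.4% of all protein-coding genes). Gnal encodes a G protein subunit that couples some striatal dopamine receptors to adenylyl cyclase. Prkacb encodes a catalytic subunit of protein kinase A, and Rgs7bp a protein that anchors RGS proteins of the RGS9 family to membranes. By the lower of the 2 fold enrichments the highest were Gnal (11.9 and 10.3), Prkacb (9.12 and 8.22) and Rgs7bp (10.4 and 8.05). In replicate 1 alone the Pde1b end peak was higher (12, against 6.56 in replicate 2). Gng7, Gnb5, Cdk5, Ppp1cc and Ptpn5 had none at an end, and all 15 loci held a reproducible peak, as did 92.8% of all protein-coding gene loci. In the no-antibody library 0 of the 4 and 0 of the 15 had a peak at an end, as did 0.27% of all protein-coding genes. Their median densities were 3.80 per 100 kb for the paralogs and 2.49 for the partners, against 2.71 over all protein-coding gene loci. The lists are short and were chosen with earlier results of these data known, and differences between them were not tested.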

How the data were processed

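CUT&Tag peaks of 2 MEIS2 libraries and 1 no-antibody library were used as deposited. MACS 2.2.7.1 called each library separately at a q cutoff of 0.05, keeping 1 tag per position, ignoring read pairs and using no control file, per the file headers. Trimmomatic, Picard and Bowtie2 2.3.4 are named, with mm10, in the submitters' processing notes, which give MACS2 as 2.1.4. The headers give 74259592, 79760948 and 72763762 tags before that limit (redundant rates 0.90, 0.92 and 0.91). As deposited, pileup is an unscaled signal in tags, and fold enrichment is the ratio to the expectation in the same library. The deposited −log10 p-value was not used, and the deposited −log10 q-value was used only for a stricter threshold.

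Genes came from a RefSeq table of GRCm38.p6, which mm10 names. It gives no strand or exons, so positions are given as inside or outside a gene, and strand and starts came from RefSeq promoter windows of the same build. A peak was in a locus if it shared at least 1 bp with it. The expected pileup was (pileup + 1) / fold enrichment − 1. Python 3.11.15, pandas 2.3.3, NumPy 2.4.6 and SciPy 1.17.1 were used, and overlap counts were tested on simulated data. The alternatives were the overlap, the q threshold, each replicate left out, no removal of control sites, replicate 2 as the base, the flank, summits in place of overlap, and the distance and kind of gene end. Named peaks are, per locus, the one with the highest lower fold enrichment, those at the member's end and those at no-antibody peaks or neighbouring gene ends, and, from the related lists, the 3 end peaks ranked highest by the lower of the replicates' values and the genes without one. Further peaks were named after their values were seen. The members and lists were chosen with earlier results of these data known. A further gene of the signalling list is not reported here, and that list's counts leave it out.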

Additional observations from a re-analysis of the deposited data

How the results depend on the processing

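No paired analysis was possible because the control is 1 library. Leaving out either MEIS2 replicate removes the need for a partner. It gave 96 to 97 peaks in the loci, 3.33 to 3.36 per 100 kb, and left 10 of 10 genes with an end peak in each case. The median fold enrichment without replicate 2 was 5.48, in replicate 1 values (6.11 with both required). Without replicate 1 it was 5.43, in replicate 2 values (5.74 with both required). With −log10 q of at least 5 there were 37 peaks, 1.28 per 100 kb, with a median fold enrichment of 7.58. With 50% reciprocal overlap the reproducible share was 47% and the median fold enrichment 6.73. That median was 5.81 without removal of control sites, 5.55 with replicate 2 as the base (then in replicate 2 values) and 6.47 without flanks, which left 33 peaks. Counting listed starts gave 5 genes, of the 7 that have one. The remaining values of these 5 results stayed within 1.5 times (counts and densities), the 95% interval (share) or 0.266 (median fold enrichment). The last is the SD of the replicate medians. Of 100 single-locus counts over 10 settings, 25 moved by more than 1.5 times. The cause of these shifts was not tested beyond what each setting changes by construction. Pileups of 6 to 54 tags in replicate 1 and 6 to 42 in replicate 2 limit how finely peaks can be ranked.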

Other observations

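Replicate 2 called peaks inside some of the genes that replicate 1 lacked, and the reverse. Inside Foxp1, chr6:99239229-99239524 had a fold enrichment of 10.2 and a pileup of 15 in replicate 2, without a partner in replicate 1. Inside Arpp21, chr9:112166152-112166406 had 9.56 and a pileup of 14 in replicate 2 alone, and chr9:112223303-112223734 had 8.62 and a pileup of 14 in replicate 1 alone. Inside Bcl11a, chr11:24142809-24143064 had 8.23 in replicate 1 alone and chr11:24100394-24100573 had 8.29 in replicate 2 alone. These values are above the medians of all reproducible peaks, 7.26 and 6.38. The peaks were chosen after their values were seen.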
